A study of Homo sapiens with 6 samples.

Results

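The zinc transporters and metallothioneins were described in HaCaT, a human keratinocyte line that became immortal on its own in culture, with and without dacomitinib, a drug that irreversibly blocks EGFR and its related receptor kinases. The members were set by gene name, with earlier results of these data known. They were the protein-coding SLC30A and SLC39A genes with a number, all metallothioneins (MT1 to MT4 with or without a letter), and MTF1. This gave 36 of the 58735 genes in the deposited table, namely 10 SLC30A exporters, 14 SLC39A importers, 11 metallothioneins and MTF1. RNA was sequenced in 3 samples treated with dacomitinib for 48 h and in 3 control samples, all wild type by their labels and grown in medium with serum and antibiotics. Treatment began at 70% confluence. The labels give no time for the controls. No source used here gives the dose of dacomitinib. The design text names 0.1% DMSO but ties it to the experimental group, so the vehicle of the controls is not clear from it. The table's 3 control columns carry the initial and number of a control label. The letter of its other 3 columns appears in no label, and they were taken as dacomitinib because no other group remained. Every direction below rests on that.

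Zinc is moved across cell membranes by a pair of protein families. Most SLC30A proteins (ZnT) carry it out of the cytosol, to the outside or into organelles, and SLC39A proteins (ZIP) carry it into the cytosol. Exporter is used here as a family name, also for SLC30A9 and SLC30A10. Metallothioneins are small cysteine-rich proteins that bind zinc, copper and cadmium in the cytosol. MTF1 is a zinc-finger transcription factor that senses cytosolic zinc, binds metal response elements and drives metallothionein genes and SLC30A1. In the epidermis zinc is needed for keratinocyte growth and differentiation, and loss of the intestinal importer SLC39A4 causes the skin disease acrodermatitis enteropathica.

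Promoter sequences are shown first, because the metal response element, the site that MTF1 binds, is known from metallothionein promoters. RefSeq promoter windows of 300 bases, from 250 before to 50 after the transcript start (build GRCh38.p14), were at hand for 27 of the 36 members. They were searched on both strands for the core of the metal response element, written as TGCACNC or TGCGCNC, where N is any base. At least 1 match stood in 29.6% of all 35116 such windows, at least 3 in 2.30%, at least 4 in 0.601% and at least 8 in 0.0199%. Capitals mark the matches below, and each sequence reads 5′ to 3′ on the strand of its gene.
MT2A, chr16:56608334-56608633, plus strand: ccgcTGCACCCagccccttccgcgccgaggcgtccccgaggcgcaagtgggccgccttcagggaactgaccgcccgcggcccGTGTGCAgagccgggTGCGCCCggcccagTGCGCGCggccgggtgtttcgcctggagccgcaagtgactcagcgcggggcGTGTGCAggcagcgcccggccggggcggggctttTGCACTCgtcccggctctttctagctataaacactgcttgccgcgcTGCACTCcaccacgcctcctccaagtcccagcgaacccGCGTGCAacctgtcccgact
MT1X, chr16:56682220-56682519, plus strand: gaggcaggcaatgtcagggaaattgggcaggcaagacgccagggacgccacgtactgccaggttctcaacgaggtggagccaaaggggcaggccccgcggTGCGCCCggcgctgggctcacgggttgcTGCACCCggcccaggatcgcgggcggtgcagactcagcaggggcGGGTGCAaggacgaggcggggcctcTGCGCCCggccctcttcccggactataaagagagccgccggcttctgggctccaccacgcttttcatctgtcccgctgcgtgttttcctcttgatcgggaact
MT1H, chr16:56669564-56669863, plus strand: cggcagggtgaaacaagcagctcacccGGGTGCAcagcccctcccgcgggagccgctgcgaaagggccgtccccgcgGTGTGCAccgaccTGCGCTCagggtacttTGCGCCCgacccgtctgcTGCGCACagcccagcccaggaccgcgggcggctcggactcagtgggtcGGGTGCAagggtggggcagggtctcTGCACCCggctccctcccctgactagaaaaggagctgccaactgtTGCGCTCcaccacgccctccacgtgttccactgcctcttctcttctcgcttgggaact
SLC30A1, chr1:211579112-211579411, minus strand: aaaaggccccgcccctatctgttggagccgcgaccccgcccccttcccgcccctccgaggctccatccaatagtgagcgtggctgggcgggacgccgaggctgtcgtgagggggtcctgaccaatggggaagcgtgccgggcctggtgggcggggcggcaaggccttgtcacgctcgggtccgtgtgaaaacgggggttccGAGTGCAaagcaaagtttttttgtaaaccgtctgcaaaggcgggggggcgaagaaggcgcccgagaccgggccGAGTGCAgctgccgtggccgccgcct
SLC39A2, chr14:20999043-20999342, plus strand: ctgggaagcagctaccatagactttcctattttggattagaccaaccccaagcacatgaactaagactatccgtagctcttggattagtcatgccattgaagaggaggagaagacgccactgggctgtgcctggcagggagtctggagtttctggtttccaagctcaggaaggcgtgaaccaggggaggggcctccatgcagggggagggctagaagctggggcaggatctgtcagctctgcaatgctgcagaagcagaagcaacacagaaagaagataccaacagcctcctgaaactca
MT2A and MT1X are shown as metallothioneins that HaCaT cells expressed, MT1H as one that had no fragment in any library, SLC30A1 as the transporter known as a target of MTF1, and SLC39A2 as the member with the largest difference. MT2A and MT1H held 8 matches each, MT1X 4, SLC30A1 2 and SLC39A2 none. All 5 metallothioneins with a window held at least 3 matches, against 1 of 21 transporters, SLC30A2. The MT2A window also held 1 AP-1 motif, searched as TGANTCA, which is left in lower case and overlaps no metal response element. That motif stood in 7.71% of all windows. A match is only a run of letters. The RefSeq start of SLC30A1 lies upstream of the start in the deposited table, and that of MT2A 385 bases downstream of it, so other windows could be drawn.

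**Figure D1:**
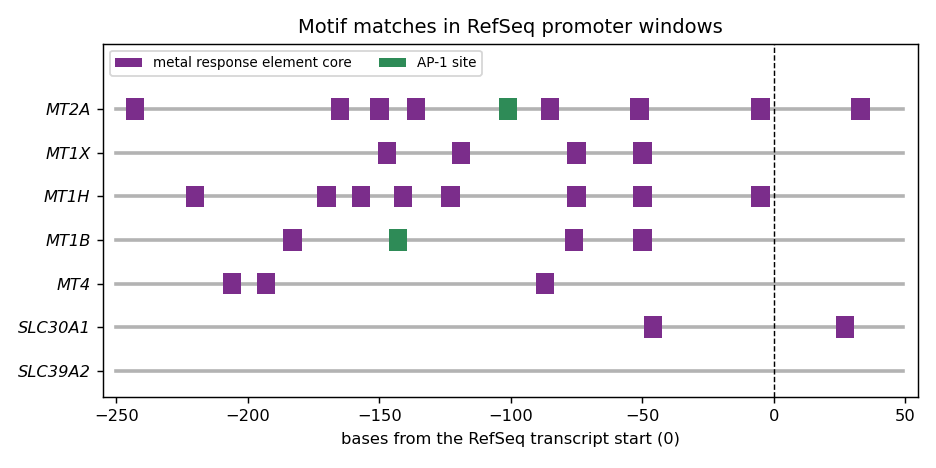
Matches to the core of the metal response element (purple) and to the AP-1 motif (green) in RefSeq promoter windows of 7 members, by distance in bases from the transcript start (dashed line). The metallothionein windows hold 3 to 8 core matches, SLC30A1 holds 2 and SLC39A2 none.

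The deposited values are FPKM, in which fragments are divided by the gene's length and by a size for the library, so that levels of different genes can be set side by side. From the values, each was a whole number of fragments, and these summed to between 14960650 and 16179273 per library. Differences are dacomitinib minus control in log2(FPKM + 1), tested with limma over the 13748 genes with a mean of at least 1 FPKM. Genes with a Benjamini-Hochberg adjusted p under 0.05 were called. The deposited scaling divides dacomitinib libraries by more than their own sum of fragments and control libraries by less. TPM, which sets every library to the same total, moved the median of all tested genes by 0.29, to 0.23 from -0.06. Calls that hang on this are named as such. All 10 keratinocyte markers checked had a mean of at least 1 FPKM (19.9 to 405), against 1 of 6 fibroblast, 1 of 4 endothelial, 0 of 4 melanocyte and 1 of 4 immune markers. COL1A2 of fibroblasts and TYR of melanocytes had no fragment. The summed keratinocyte markers stood at 1103 to 1248 FPKM with dacomitinib and 1245 to 1314 FPKM in controls. Within that list KRT5, KRT14, KRT6A, TP63 and ITGA6 had lower means with dacomitinib. KRT17, ITGB4, LAMB3, COL17A1 and DSG3 had higher means. The endothelial markers summed to 10.6 to 13.5 FPKM with dacomitinib and 1.87 to 2.20 FPKM in controls. Most of that sum was CDH5, at 10.0 ± 1.39 and 1.15 ± 0.0836 FPKM (SD, n = 3). PECAM1 and VWF were also higher, while CLDN5 had fragments only in controls. Fibroblast markers summed to 2.28 to 3.63 FPKM with dacomitinib and 0.853 to 1.21 FPKM in controls, melanocyte markers to 1.94 to 2.40 and 1.08 to 1.42 FPKM, and immune markers to 2.48 to 4.21 and 1.46 to 2.49 FPKM. The part of these shifts in the results below was not tested. In bulk RNA, fewer cells of a type and less RNA per cell cannot be told apart.

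Of the 36 members, 18 passed the expression filter and 18 did not. Of the 18 tested, 3 were higher and 7 lower with dacomitinib, or 55.6%, against 60.2% of all genes tested (25.4% higher and 34.8% lower). With TPM the members split into 9 higher and 1 lower, against a background of 61.8% (42.0% higher and 19.8% lower). With a median ratio scaling 4 were higher and 6 lower, against 60.0% (29.8% and 30.3%), and with voom on recovered fragments 6 were higher and 4 lower, against 63.3% (35.8% and 27.5%). With quantile normalization 5 were higher and 3 lower, against 59.0% (30.4% and 28.6%). Without the expression filter 1 was higher and 6 lower, against 26.5% (12.6% and 13.9%). At a mean of at least 5 FPKM 12 members were tested and 6 called, all lower, against 72.6% of the genes tested there (25.3% higher and 47.3% lower). The 3 members that were higher have means under 5 FPKM and were not among those 12. In the deposited FPKM, groups of libraries did not overlap for 12 of the 18, against 67.1% of all genes tested. The 55.6% called and the 12 that did not overlap are near these backgrounds. The median difference of the 18 was -0.02, against -0.06 over all genes, and 0.28 against 0.23 with TPM. The 3 tested metallothioneins were all lower, SLC39A2 was far higher, and SLC39A7, the most abundant importer in controls beside SLC39A6, was lower.

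**Figure D2:**
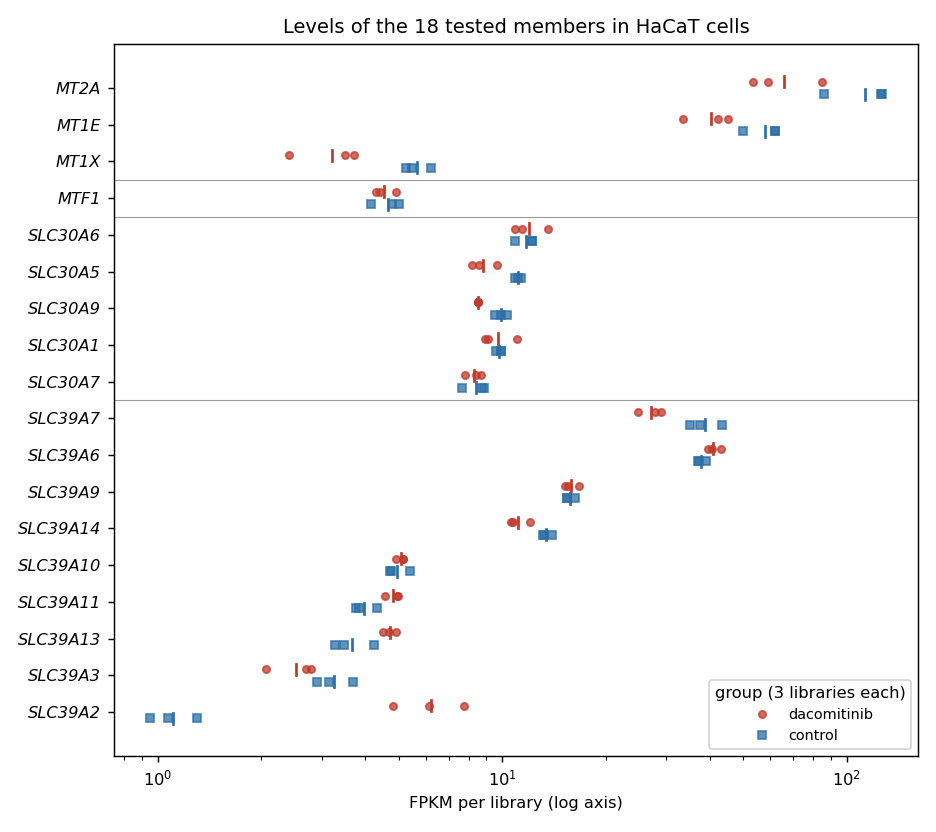
FPKM of the 18 tested members in each library (log axis), with dacomitinib libraries as circles above control libraries as squares and a bar at each mean. MT2A has the highest levels, and SLC39A2 shows the widest gap, at 4.82 to 7.74 FPKM with dacomitinib and 0.950 to 1.30 FPKM in controls.

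The 11 metallothionein genes lie together on chromosome 16, from MT4 at 56565049 to MT1X at 56684196 (GRCh38). Only MT2A, MT1E and MT1X passed the filter, and all 3 fell, against 34.8% lower over all genes tested. MT2A, the most abundant member of all, stood at 84.8, 53.4 and 59.1 FPKM with dacomitinib, against 126, 127 and 85.8 FPKM in controls. In the deposited FPKM the groups did not overlap, but the highest dacomitinib library came close to the lowest control. In fragments they did overlap, at 1842 in dacomitinib replicate 1 and 1639 in control replicate 3. Those libraries held 16007328 and 15405623 fragments, so by the libraries' own sizes the groups overlap too. The gap therefore hangs on the deposited scaling. The difference in MT2A (ENSG00000125148, chromosome 16, 56608199 to 56609497) was -0.78 (SE 0.21, limma adjusted p = 0.0182). That call was lost without control replicate 1 (limma adjusted p = 0.0601), control replicate 2 (0.0594), dacomitinib replicate 2 (0.0562) or dacomitinib replicate 3 (0.0593). It was also lost without an expression filter (0.0521) and with TPM (0.0640), within a range of 9.08e-05 to 0.0640 over its 17 alternatives.

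MT1E (ENSG00000169715, chromosome 16, 56625475 to 56627112) had 45.3, 33.6 and 42.3 FPKM with dacomitinib, against 62.2, 61.9 and 49.9 FPKM in controls. Control replicate 3 was the lowest control for MT2A, MT1E and MT1X alike. Dacomitinib replicate 1 was the highest dacomitinib library for MT2A and MT1E. The difference in MT1E was -0.52 (SE 0.13, limma adjusted p = 0.0134), a call lost with TPM (-0.21, adjusted p = 0.138) and with quantile normalization (adjusted p = 0.105), within 0.000280 to 0.138 over its 17 alternatives.

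MT1X (ENSG00000187193, chromosome 16, 56682424 to 56684196) had 3.51, 3.71 and 2.40 FPKM with dacomitinib, against 5.46, 6.22 and 5.26 FPKM in controls. Its groups were well apart, and its difference of -0.67 (SE 0.14, limma adjusted p = 0.00486) stayed past the threshold under all 16 alternatives in which it was tested, with TPM at -0.49. Set against the median of all genes, MT2A stood at -0.72 with the deposited values and -0.70 with TPM. MT1X stood at -0.62 and -0.72, and MT1E at -0.46 and -0.44. TPM differs from the deposited values by a single factor per library, and subtracting the median largely takes that factor out. The closeness of these values follows from that and does not bear on the calls lost with TPM.

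Summed over the family, metallothionein RNA came to 111 ± 22.2 FPKM with dacomitinib and 177 ± 30.8 FPKM in controls (SD, n = 3). MT2A made up 59.5% of that sum with dacomitinib and 63.7% in controls, and MT1E 36.5% and 32.7%. MT1F was the one metallothionein to point the other way, with 1.61, 1.21 and 0.882 FPKM with dacomitinib, against 0.598, 0.790 and 0.720 FPKM in controls. Its groups did not overlap, yet it fell just under the filter with 118 fragments over the dacomitinib libraries and 59 over the controls. Fitted without a filter, its difference was 0.38 (SE 0.17) and did not pass (limma adjusted p = 0.165).

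Of the other 7 metallothioneins, MT1B had 1 fragment in a single control library, and MT1A, MT1G, MT1H, MT1M, MT3 and MT4 had none in any library. MT3 is known from brain and MT4 from stratified squamous epithelium. A count of 0 allows up to 3 fragments in a library, for counting error only. None of the 14 housekeeping genes checked was at 0, but their means ran from 6.12 to 1711 FPKM, so they do not bear on low genes. Metallothionein genes are near copies of each other, and the handling of fragments that fit several genes is not given in the sources used here, so their values are uncertain. Of the 50-base windows in MT2A transcripts, 3.02% were found word for word in transcripts of another gene, against 7.10% for MT1E, 18.3% for MT1X, 16.5% for MT1G and 15.8% for MT1H. With 100-base windows the shares were 0% for MT2A and MT1E and 11.3% for MT1X. A non-coding gene on the same strand, with no fragment in any library, overlaps 18.1% of the MT1X exons. Fragments on MT1XP1, a pseudogene that shares windows with MT1X, came to 5 over the dacomitinib libraries and 1 over the controls.

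MTF1 (ENSG00000188786, chromosome 1, 37809567 to 37859620) had 4.31, 4.92 and 4.40 FPKM with dacomitinib, against 4.80, 4.17 and 5.00 FPKM in controls. The groups overlapped, and the difference was -0.03 with a 95% interval from -0.22 to 0.17 (limma adjusted p = 0.788). With TPM it was 0.27 (adjusted p = 0.0730).

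**Figure D3:**
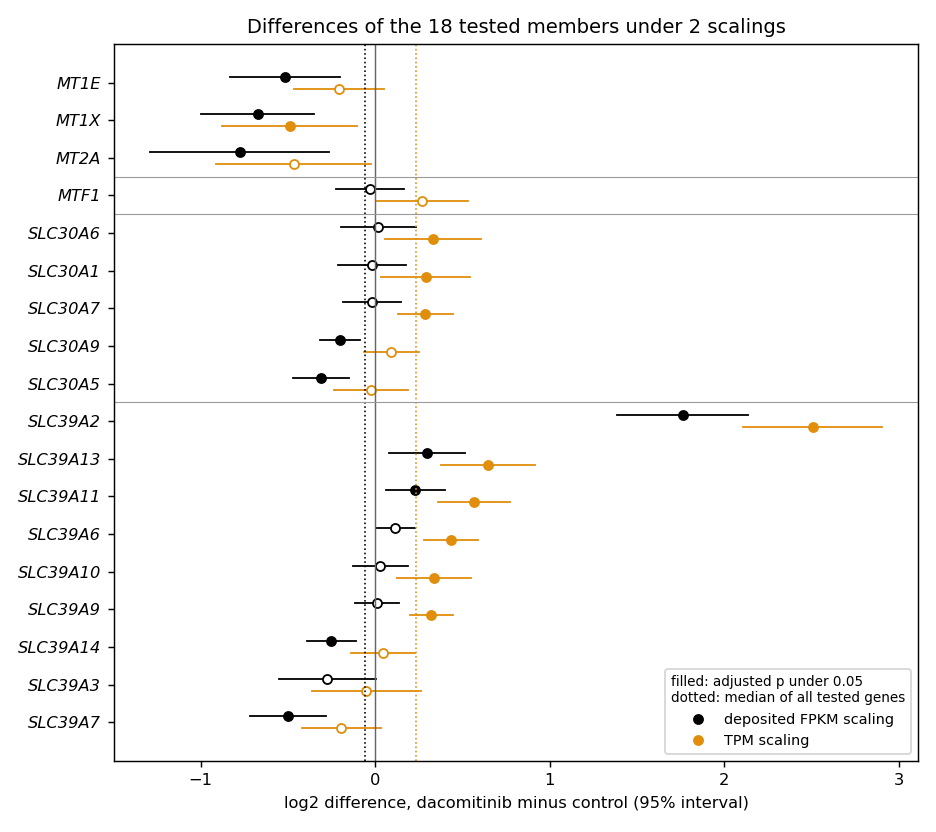
Log2 difference, dacomitinib minus control, with its 95% interval for each tested member under the deposited FPKM scaling (black) and TPM (orange), filled where the adjusted p is under 0.05, with dotted lines at the median of all tested genes. TPM moves every member to the right, and SLC39A2, at 1.76 and 2.51, stands far from the rest under both.

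The SLC30A exporters showed small differences. SLC30A1 to SLC30A10 were all in the table, and 5 passed the filter. SLC30A5 and SLC30A9 fell, and SLC30A1, SLC30A6 and SLC30A7 did not pass. The 5 had like levels, with group means between 8.28 and 12.0 FPKM, and together they made up nearly all of the family's sum of 48.4 ± 3.09 FPKM with dacomitinib and 51.6 ± 0.521 FPKM in controls (SD, n = 3).

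SLC30A1, the plasma membrane exporter that MTF1 drives, had 9.11, 11.1 and 8.92 FPKM with dacomitinib, against 9.91, 9.57 and 9.89 FPKM in controls. The tight controls lay within the range of the dacomitinib libraries. The difference in SLC30A1 (ENSG00000170385, chromosome 1, 211571568 to 211578742) was -0.02, with a 95% interval from -0.21 to 0.18 (limma adjusted p = 0.868), and 0.29 with TPM, just past the threshold (adjusted p = 0.0499). Within a library the ratio of MT2A to SLC30A1, which no scaling changes, was 9.31, 4.82 and 6.62 with dacomitinib, against 12.7, 13.2 and 8.68 in controls. These ranges overlapped.

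SLC30A5 and SLC30A6 form a heterodimer that loads zinc into the early secretory pathway. SLC30A5 (ENSG00000145740, chromosome 5, 69093646 to 69131069) had 8.55, 9.68 and 8.16 FPKM with dacomitinib, against 10.9, 11.3 and 11.1 FPKM in controls. It fell by 0.31 on the log2 scale (SE 0.07, limma adjusted p = 0.00663), a call lost with TPM (-0.02, adjusted p = 0.833), quantile normalization (adjusted p = 0.146) and voom (adjusted p = 0.0737), within 0.000697 to 0.833 over its 17 alternatives. Its partner SLC30A6 (ENSG00000152683, chromosome 2) had 10.9, 13.6 and 11.4 FPKM with dacomitinib, against 10.9, 12.2 and 12.2 FPKM in controls, a difference of 0.02 (95% interval -0.20 to 0.23; with TPM 0.33, limma adjusted p = 0.0420). The ratio of SLC30A5 to SLC30A6 within a library was 0.785, 0.712 and 0.715 with dacomitinib, against 1.00, 0.927 and 0.912 in controls. On this scale-free measure the groups did not overlap. The ratios are given as a description, with no test, because they were chosen after their values were seen.

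SLC30A7, a Golgi exporter, had group means of 8.28 ± 0.447 FPKM with dacomitinib and 8.40 ± 0.643 FPKM in controls (SD, n = 3), and its difference was -0.02 (limma adjusted p = 0.836). With TPM its difference was 0.29 and passed (adjusted p = 0.00759). SLC30A9, which carries zinc out of mitochondria, had 8.48, 8.54 and 8.53 FPKM with dacomitinib, against 9.93, 9.55 and 10.3 FPKM in controls. Its difference of -0.20 (SE 0.05, limma adjusted p = 0.00999) was lost with 4 alternatives, all of which change the scaling: median ratio (adjusted p = 0.0697), quantile normalization (0.501), voom (0.586) and TPM, where it was 0.09 (0.265).

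The other 5 exporters were below the filter. SLC30A4, which fills endosomal vesicles, had 119, 170 and 161 fragments with dacomitinib, against 74, 80 and 53 in controls. In FPKM this was 1.10 ± 0.198 with dacomitinib and 0.579 ± 0.115 in controls (SD, n = 3), with no overlap. Fitted without a filter the difference was 0.41 (SE 0.14) and did not pass (limma adjusted p = 0.0894). SLC30A3 of synaptic vesicles had 11 and 12 fragments over the dacomitinib and control libraries, SLC30A2 of the mammary gland 4 and 0, and the manganese exporter SLC30A10 0 and 1. SLC30A8, the exporter of insulin granules, had no fragment in any library.

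The SLC39A importers held both the largest rise and a clear fall. Of the 14 importers, 9 were tested, of which 3 rose (SLC39A2, SLC39A11 and SLC39A13), 2 fell (SLC39A7 and SLC39A14) and 4 did not pass (SLC39A3, SLC39A6, SLC39A9 and SLC39A10). Over all genes tested 25.4% were higher and 34.8% lower. With TPM 6 importers rose and the other 3 did not pass, against 42.0% higher and 19.8% lower over all genes. The family's sum was 120 ± 2.27 FPKM with dacomitinib and 125 ± 4.21 FPKM in controls (SD, n = 3).

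SLC39A2 (ENSG00000165794, chromosome 14, 20999255 to 21001871), a plasma membrane importer described in differentiating keratinocytes, had 7.74, 4.82 and 6.13 FPKM with dacomitinib, against 1.30, 1.07 and 0.950 FPKM in controls. Every dacomitinib library was above every control by a wide margin. The mean FPKM was 5.63 times as high, and the difference of 1.76 (SE 0.16, limma adjusted p = 0.000122) ranked 119 from the top of the 13748 genes tested. It passed under all 16 alternatives in which it was tested, at 2.51 with TPM, 2.46 with voom on the library sizes of the deposited FPKM and 2.64 with voom on the libraries' own sizes. The depth behind it was 498 fragments over the dacomitinib libraries and 77 over the controls. An antisense gene covers 5.65% of its exons, and no window of its transcripts was shared with another gene. With dacomitinib SLC39A2 made up 5.18% of the importer sum, against 0.888% in controls.

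**Figure D4:**
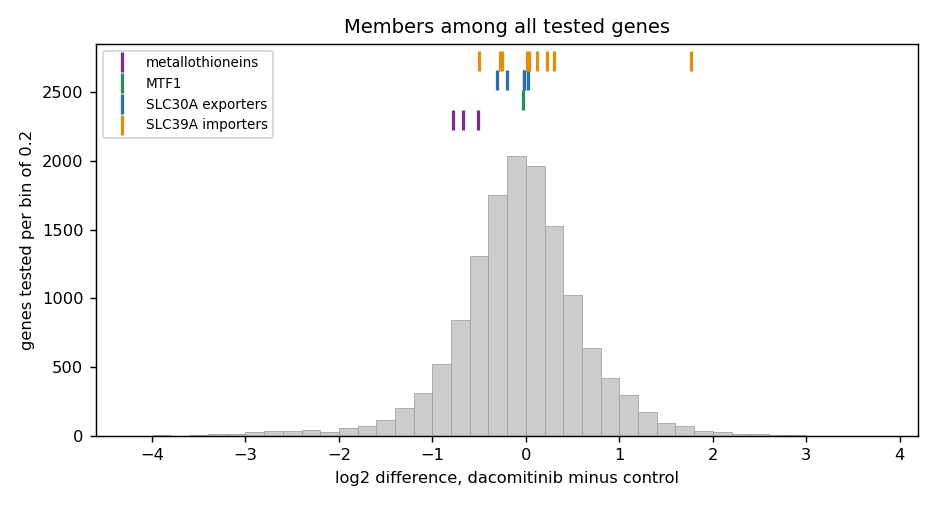
Number of tested genes per bin of 0.2 in log2 difference, dacomitinib minus control, with a tick for each tested member above the bars. Most members lie in the bulk of the distribution, the 3 metallothioneins on its lower side at -0.78 to -0.52, and SLC39A2, alone among the members, in the upper tail at 1.76.

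SLC39A6 and SLC39A7 were the most abundant importers. SLC39A6, a plasma membrane importer that can pair with SLC39A10, had 39.5, 43.1 and 40.7 FPKM with dacomitinib, against 37.1, 39.0 and 37.3 FPKM in controls, with a narrow gap between the groups. SLC39A7, which releases zinc from the endoplasmic reticulum, had 27.7, 24.8 and 28.9 FPKM with dacomitinib, against 35.2, 37.7 and 43.5 FPKM in controls. In controls their means, 37.8 ± 1.01 for SLC39A6 and 38.8 ± 4.27 FPKM for SLC39A7, differed by less than their spread. With dacomitinib they were 41.1 ± 1.83 and 27.1 ± 2.08 FPKM (SD, n = 3). The ratio of SLC39A6 to SLC39A7 within a library was 1.42, 1.73 and 1.41 with dacomitinib, against 1.05, 1.03 and 0.858 in controls, with no overlap.

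On the log2 scale SLC39A7 (ENSG00000112473, chromosome 6, 33200445 to 33204439) fell by 0.50 (SE 0.09, limma adjusted p = 0.00314), a call lost only with TPM among 17 alternatives (-0.19, adjusted p = 0.117). RXRB on the opposite strand covers 8.58% of its exons, and whether strand was counted is not given in the sources used here. SLC39A6 (ENSG00000141424, chromosome 18, 36108532 to 36129385) had a difference of 0.12 (SE 0.05, limma adjusted p = 0.0713). It passed with TPM (0.43, adjusted p = 0.00112), with median ratio, quantile normalization and voom, and without dacomitinib replicate 1 (adjusted p = 0.0457), within 0.000190 to 0.194 over its 17 alternatives. SLC39A10, its partner, had group means of 5.08 ± 0.140 with dacomitinib and 4.96 ± 0.389 FPKM in controls (SD, n = 3), a difference of 0.03 (95% interval -0.13 to 0.19), and passed with TPM (0.34, limma adjusted p = 0.0139) and voom (0.21, 0.0444).

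SLC39A11 (ENSG00000133195, chromosome 17) had 4.99, 4.95 and 4.56 FPKM with dacomitinib, against 3.76, 4.32 and 3.84 FPKM in controls. It rose by 0.23 on the log2 scale (SE 0.07, limma adjusted p = 0.0274). SLC39A13 (ENSG00000165915, chromosome 11), a zinc transporter of the secretory pathway whose loss causes a form of Ehlers-Danlos syndrome, had 4.50, 4.93 and 4.70 FPKM with dacomitinib, against 3.48, 4.24 and 3.26 FPKM in controls. It rose by 0.30 (SE 0.09, limma adjusted p = 0.0281). For both the groups did not overlap, but the calls were fragile. SLC39A11 lost its call without control replicate 1 (adjusted p = 0.0902), control replicate 3 (0.0755), dacomitinib replicate 1 (0.0760) or dacomitinib replicate 2 (0.0768). SLC39A13 lost its call without control replicate 1 (adjusted p = 0.0851), control replicate 3 (0.0790), dacomitinib replicate 2 (0.0825) or dacomitinib replicate 3 (0.0709). Without a filter neither passed (adjusted p = 0.0594 and 0.0667), while with TPM both did, at 0.57 and 0.65.

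SLC39A14 (ENSG00000104635, chromosome 8), which also carries manganese and iron, had 10.6, 10.8 and 12.0 FPKM with dacomitinib, against 13.1, 13.3 and 13.9 FPKM in controls. It fell by 0.25 on the log2 scale (SE 0.06, limma adjusted p = 0.00965), a call lost with TPM (0.04, adjusted p = 0.640), quantile normalization (0.452) and voom (0.241). SLC39A9, a Golgi importer, had 15.8 ± 0.806 FPKM with dacomitinib and 15.7 ± 0.536 FPKM in controls (SD, n = 3), a difference of 0.01 (95% interval -0.12 to 0.14), and passed with TPM (0.32, limma adjusted p = 0.00144), quantile normalization (0.23, 0.00681) and voom (0.19, 0.00851). SLC39A3 had 2.78, 2.07 and 2.69 FPKM with dacomitinib, against 3.68, 3.15 and 2.90 FPKM in controls. Its groups did not overlap in the deposited FPKM, but its difference of -0.27 (SE 0.12) did not pass (limma adjusted p = 0.0807). In fragments the groups overlapped, at 213 in dacomitinib replicate 3 and 194 in control replicate 3. With TPM the difference was -0.05 (adjusted p = 0.759). A protein-coding gene on the same strand covers 9.58% of the SLC39A3 exons.

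Below the filter, SLC39A5 and SLC39A8 had groups whose deposited FPKM did not overlap. Those of SLC39A1 were apart by a hair (0.267 to 0.494 FPKM with dacomitinib, and no control below them), while its fragments overlapped. SLC39A5, an importer known from the gut and pancreas, had 12, 22 and 12 fragments with dacomitinib, against 4, 5 and 2 in controls. SLC39A8, which carries zinc, manganese and cadmium, had 19, 6 and 19 fragments with dacomitinib, against 35, 19 and 36 in controls. In fragments the groups touch, but its deposited FPKM, at 0.0558 to 0.175 with dacomitinib and 0.190 to 0.381 in controls, do not. That gap hangs on the deposited scaling. Dacomitinib replicate 1 and control replicate 2 had 19 fragments each, from 16007328 and 16166582, so by the libraries' own sizes they are not apart. Without a filter neither SLC39A5 nor SLC39A8 passed (limma adjusted p = 0.0611 for SLC39A5 and 0.151 for SLC39A8). SLC39A4, the gene of acrodermatitis enteropathica, had 234 and 226 fragments over the dacomitinib and control libraries and overlapping groups. SLC39A12, known from brain, had no fragment in any library.

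SLC39A1, a plasma membrane importer, had only 28, 15 and 29 fragments with dacomitinib, against 24, 28 and 38 in controls. Exons of other genes cover 69.1% of its exon bases. The larger share belongs to AL358472.7, a gene on the same strand that has no fragment in any library. Of its transcript windows, 55.2% at 50 bases and 50.4% at 100 bases are shared with another gene. Whether fragments in shared exons were discarded was not tested, so the low level of SLC39A1 is uncertain.

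**Figure D5:**
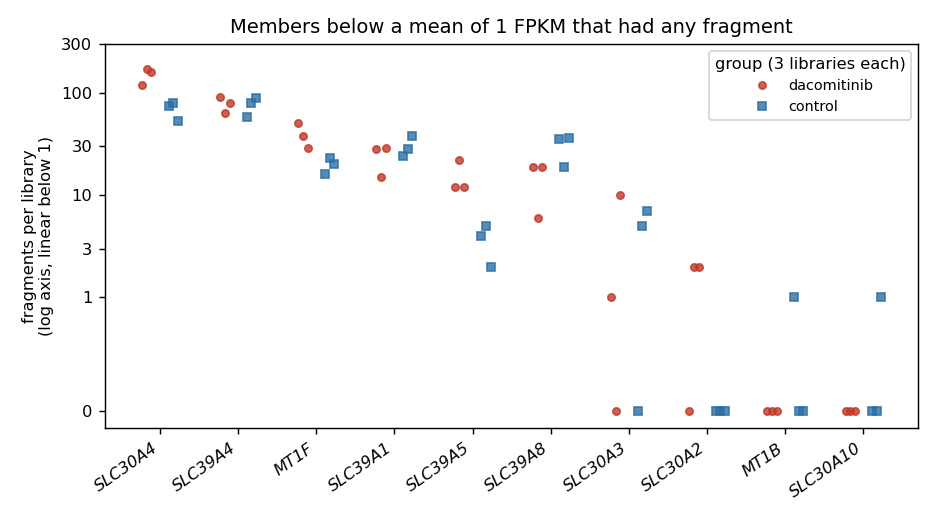
Fragments per library (log axis, linear below 1) of the 10 members below a mean of 1 FPKM that had any fragment, dacomitinib to the left of control for each gene. SLC30A4, MT1F and SLC39A5 are higher in each dacomitinib library than in any control, and the last 4 genes have 10 fragments or fewer in every library.

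Genes that use zinc or carry other metals were read from 4 further lists, in which 24 genes were tested and 6 rose and 9 fell. Over all genes tested the shares were 25.4% and 34.8%, so the lists' counts are near the background. Of 13 zinc enzymes of the secretory pathway in the table, 6 were tested, of which 3 rose and 2 fell, with a median difference of 0.28 against -0.06 over all genes. ALPP and ALPG, alkaline phosphatases of the kind that take up zinc in the secretory pathway, rose most. ALPP had 209 ± 34.0 FPKM with dacomitinib and 27.6 ± 1.77 FPKM in controls, a difference of 2.87 (SE 0.12, limma adjusted p = 4.61e-06). ALPG had 11.4 ± 2.88 with dacomitinib and 1.06 ± 0.215 FPKM in controls (SD, n = 3). The pair are near-identical copies, and fragments could have been divided between them. NT5E, an ectonucleotidase, fell to 8.02 ± 0.330 FPKM with dacomitinib, against 15.1 ± 0.274 FPKM in controls. CA9, a carbonic anhydrase, fell to 0.270 ± 0.182 FPKM, against 1.88 ± 0.228 FPKM in controls. CA9 passed the filter only through its controls and rests on 23 fragments over the dacomitinib libraries and 139 over the controls.

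Of 8 copper handling genes 6 were tested, and 4 fell, against 34.8% lower over all genes. Their median was -0.32, against -0.06 over all genes. With TPM 1 rose and 2 fell, against 42.0% and 19.8% over all genes. The copper genes below the filter were SLC31A2 and ATP7B, named after their values were seen. SLC31A2 had 1.32 ± 0.342 FPKM with dacomitinib and 0.173 ± 0.0970 FPKM in controls (SD, n = 3), with no overlap. It rests on 168 fragments over the dacomitinib libraries and 19 over the controls. The groups of ATP7B overlapped. SOD1, the cytosolic copper and zinc superoxide dismutase, fell by 0.87 (SE 0.06, limma adjusted p = 2.93e-05) and was lower in each dacomitinib library than in any control. COX17, a copper chaperone of mitochondria, fell by 0.78 (SE 0.10, limma adjusted p = 0.000510). Of 11 iron and manganese handling genes 10 were tested, with 3 higher and 3 lower and a median of 0.09, against -0.06 over all genes. With TPM 7 were higher and 1 lower, against 42.0% and 19.8% over all genes. The list's median with TPM was 0.40, against 0.23 over all genes. FTH1, the ferritin heavy chain, had 1573, 1432 and 1392 FPKM with dacomitinib, against 788, 879 and 797 FPKM in controls, and rose by 0.83 on the log2 scale (SE 0.08, limma adjusted p = 0.000166). HMOX1, heme oxygenase 1, rose to 3.57 ± 0.669 FPKM, against 0.551 ± 0.192 FPKM in controls (SD, n = 3). HMOX1 passed the filter only through the dacomitinib libraries, with 437 fragments over those and 59 over the controls. SLC25A28, a mitochondrial iron carrier, fell by 0.59 (SE 0.06, limma adjusted p = 0.000286). IREB2, which binds iron response elements in RNA, fell by 0.28 (SE 0.05, limma adjusted p = 0.00280), a call lost with quantile normalization, voom and TPM (0.02, adjusted p = 0.849), within a range up to 0.849. Of the 4 other zinc-linked membrane proteins 2 were tested, TMC6 (0.12, limma adjusted p = 0.293) and GPR39 (-0.32, adjusted p = 0.0514), and neither passed; both are named after their values were seen.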

How the data were processed

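RNA libraries of 6 HaCaT samples were compared, 3 with dacomitinib and 3 controls. The deposited values are FPKM per gene. The submitters' processing notes list CASAVA and fastp, then HISAT2 with featureCounts, as well as DESeq2 1.20.0 and the build GRCh38, but no roles. Judged from the deposited FPKM, the authors' library size was 1.07 ± 0.0244 times the library's own fragments with dacomitinib and 0.952 ± 0.00449 times in controls (SD, n = 3). Gene lengths equal the exon union in GENCODE release 29 for all 36 members.

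Tests used limma 3.58.1 (R 4.3.3) on log2(FPKM + 1), with the variance modelled as a trend in mean level, for genes with a mean of at least 1 FPKM, two-sided, with Benjamini-Hochberg adjustment over all 13748 genes tested. The pseudocount of 1 understates changes of low genes. Fragments were recovered as whole steps of FPKM times length (100% of values within 0.01). They give the depth, 14960650 to 16179273 per library, and the input of voom. The procedure was also run on simulated fragments, in which few genes were changed and each library was scaled to its own sum. That run cannot speak to the scaling of the deposited values. Alternatives were other pseudocounts, filters, scalings and fits, a replicate block, and leaving out each library.

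Every member is described. From each further list the text names up to 2 rises and 2 falls past the threshold. The members and lists were chosen with earlier results of these data known. Nothing in the labels tells whether replicates were separate cultures, and p-values then measure only the spread between samples, which may be technical. Sequences are from RefSeq (GRCh38.p14).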

Additional observations from a re-analysis of the deposited data

How the results depend on the processing

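Against 10 members called, 3 higher and 7 lower, leaving out 1 library in turn gave 7 to 10 called, 1 to 3 higher and 6 to 7 lower (7319 to 7870 of all 13748 genes, against 8271 as reported); only SLC39A2 of the 3 stayed higher without control replicate 1, control replicate 3 or dacomitinib replicate 2. With a mean of at least 5 FPKM, which tests 12 members, 6 were called and limma called 0 higher (0 at an unadjusted p under 0.05); the 3 members that rose lie below that filter, so this 0 follows from the filter. Without a filter 1 was higher. Higher and lower members numbered 9 and 1 with TPM, 5 and 3 with quantile normalization and 6 and 4 with voom. Over all genes, 3493 higher calls became 1946 at a mean of at least 5 FPKM and 5779 with TPM, and 4778 lower calls became 2721 with TPM. In the 4 further lists, 6 higher calls became 13 with TPM and 11 with voom, and 9 lower calls became 5 with TPM. With TPM, median ratio, quantile normalization and voom, the log2 difference of SLC30A1 was 0.290, 0.0642, 0.152 and 0.154, that of SLC30A7 0.288, 0.0620, 0.124 and 0.157, and that of MTF1 0.268, 0.0462, 0.0572 and 0.144, each just below 0 as reported. With TPM, SLC39A14 (0.0443), SLC30A9 (0.0919) and IREB2 (0.0163) also changed sign. These scalings raise the median of all genes, to 0.23 with TPM. Leaving out 1 library, members near 0 spanned both signs: SLC39A9 -0.0288 to 0.0364, SLC30A6 -0.0699 to 0.0783, SLC30A1 -0.1076 to 0.0342, SLC30A7 -0.0762 to 0.0203 and MTF1 -0.0912 to 0.0163. Voom with the library sizes of the deposited FPKM, added after seeing the data, also called SLC39A3 lower (limma adjusted p = 0.0391). Members below the filter had at most 450 fragments over the 3 libraries of a group; whether depth kept them from passing was not tested.

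The groups share replicate numbers, but no label ties a number to a shared culture. Deviations of same-numbered libraries correlated at 0.03, -0.02 and 0.04, and those of other pairs at -0.08 to 0.05. No label ties the numbers of the dacomitinib columns to samples, so these values cannot settle whether libraries were paired. With the replicate block 7883 genes were called, 3265 higher and 4618 lower, and 10 members, 3 higher and 7 lower.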
